A study of Mus musculus with 3 samples.

Results

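The 9 genes Fos, Fosb, Jun, Junb, Jund, Atf3, Egr1, Ier2 and Nr4a1 were followed through tumour-associated macrophages of the mouse mammary gland. They were chosen by name from the 31053 features of the count matrices. All 9 were present in the files, and all 9 passed the filter on low counts. The cells came from the mammary adenocarcinomas of 3 mice of the strain FVB/N-Tg(MMTVPyVT)634Mul/J, in which the polyoma middle T antigen is driven by the MMTV promoter, mainly in mammary epithelium. Each mouse gave 1 tumour of 750 mm3 and 1 library. Tumours were kept for 60 min at 37 °C with collagenase I and deoxyribonuclease I, and cells that were CD45+ Ly6G- CD11b+ F4/80+ were sorted and run on the 10x Genomics 3' v3 single-cell kit. The 3 libraries form 1 group with no treated, normal or undissociated counterpart, so every comparison below sets 1 class of macrophages against the other classes in the same mice.

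Immediate-early genes are transcribed within minutes of a stimulus, without new protein synthesis, from promoters already held by factors such as SRF with its ternary complex partners and CREB. The Fos proteins (Fos, Fosb) pair with the Jun proteins (Jun, Junb, Jund) to form the AP-1 transcription factor, and Jun itself is activated by the JNK kinases. Atf3 is a stress-induced leucine zipper factor that limits cytokine transcription in macrophages, Egr1 a zinc finger factor downstream of ERK, Ier2 a short nuclear protein, and Nr4a1 an orphan nuclear receptor that restrains inflammatory genes in monocytes and macrophages. These genes also answer to growth factors, to bacterial products and to the enzymatic dissociation of tissue, and their transcripts are short-lived. No sample here was spared dissociation, and its part in the levels below was not tested.

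The 9 genes lie on 7 chromosomes of the mm10 build, and the position of Egr1 follows with its values. Fos (ENSMUSG00000021250) is at chr12:85473890-85477273 on the plus strand, Fosb (ENSMUSG00000003545) at chr7:19302696-19310051 on the minus strand, Atf3 (ENSMUSG00000026628) at chr1:191170296-191218039 on the minus strand and Nr4a1 (ENSMUSG00000023034) at chr15:101254269-101274795 on the plus strand. Jun (ENSMUSG00000052684), at chr4:95049034-95052222 on the minus strand, has 1 exon and overlaps its antisense gene Junos by 689 bases. Chromosome 8 carries Jund (ENSMUSG00000071076, chr8:70698949-70700616, plus strand, 1 exon), Ier2 (ENSMUSG00000053560, chr8:84661331-84662852, minus strand, 1 exon) and Junb (ENSMUSG00000052837, chr8:84974484-84978718, minus strand). Ier2 and Junb are 311631 bases apart. Jund overlaps Gm11175 on the other strand by 919 bases, Junb overlaps Prdx2 by 351 bases and Atf3 overlaps Gm24748 by 108 bases.

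Promoter windows of 250 bases before the RefSeq start (GRCm38.p6) were searched for 7 of the 9 genes, and those of Egr1 and Ier2 were not used here. The windows of 4 genes are printed because their levels moved in pairs across the macrophage classes described below, Jun with Atf3 and Fosb with Junb. They are written 5′ to 3′ on the gene's own strand, at chr4:95052223-95052472 (- strand), chr1:191183334-191183583 (- strand), chr7:19310046-19310295 (- strand) and chr8:84978749-84978998 (- strand), and capitals mark matches to the motifs searched.
Jun: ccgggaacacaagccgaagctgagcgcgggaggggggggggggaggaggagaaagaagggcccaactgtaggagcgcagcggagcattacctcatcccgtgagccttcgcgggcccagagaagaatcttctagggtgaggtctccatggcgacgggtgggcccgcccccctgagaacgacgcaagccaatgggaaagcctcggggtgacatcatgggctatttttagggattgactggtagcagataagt
Atf3: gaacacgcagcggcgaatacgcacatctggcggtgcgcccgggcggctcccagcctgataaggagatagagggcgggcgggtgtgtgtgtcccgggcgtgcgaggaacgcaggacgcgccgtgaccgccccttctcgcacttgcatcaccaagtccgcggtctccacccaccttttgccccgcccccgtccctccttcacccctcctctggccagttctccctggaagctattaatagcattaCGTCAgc
Fosb: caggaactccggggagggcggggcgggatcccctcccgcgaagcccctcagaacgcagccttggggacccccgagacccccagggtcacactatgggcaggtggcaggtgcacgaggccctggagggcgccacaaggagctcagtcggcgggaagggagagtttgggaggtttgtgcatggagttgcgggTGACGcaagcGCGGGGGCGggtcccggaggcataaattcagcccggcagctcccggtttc
Junb: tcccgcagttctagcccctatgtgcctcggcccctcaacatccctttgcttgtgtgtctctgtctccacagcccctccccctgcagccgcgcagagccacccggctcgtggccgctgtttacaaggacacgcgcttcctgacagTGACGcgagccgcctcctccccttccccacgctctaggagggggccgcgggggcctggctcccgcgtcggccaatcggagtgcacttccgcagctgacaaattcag
Both strands were searched for the CArG box that SRF recognises, for the full cyclic AMP response element TGACGTCA, for its part TGACG, which the full element also contains, for the AP-1 element TGANTCA, for TATAAA and for the Egr1 element GCGNGGGCG. TGACG was found in 5 of the 7 windows (Fos, Fosb, Junb, Atf3 and Nr4a1), against 17.8% of the 32851 promoter windows of the same length. Its match starts 7 bases before the start in Atf3, 60 bases before it in Fosb and 106 bases before it in Junb. Nr4a1 held 4 copies and Fos held 2, and Fos also held the TATAAA, which 12.4% of all windows hold. GCGNGGGCG was found in Fosb and Nr4a1 (4.70% of all windows). The CArG box (1.47% of all windows), TGACGTCA (1.55%) and TGANTCA (6.75%) were found in 0 of the 7 windows, and the window of Jun held none of the letters searched. The RefSeq window of Jund lies upstream of the gene start given above, and those of Atf3 and Nr4a1 lie inside the gene spans given above, since RefSeq starts these genes further downstream. These matches describe letters within 250 bases and say nothing of binding.

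Of 1074, 2470 and 7429 deposited barcodes in mice 1, 2 and 3, 661, 2099 and 6978 were kept. These had 500 or more genes and 15% or less of their UMIs (unique molecular identifiers, each counted as 1 captured transcript) from mitochondrial genes. They also exclude 11 cells that the Scrublet tool marked as doublets. The libraries held 12454677, 41097369 and 86178419 UMIs in all, with a median of 14996, 13579 and 9318.5 UMIs per kept cell. In mouse 1, 36.0% of barcodes exceeded the mitochondrial limit, against 12.1% in mouse 2 and 4.13% in mouse 3, so mouse 1 rests on the smallest share of its barcodes. Mice 2 and 3 shared 7 barcodes and the other pairs shared 0. Clustering without the 9 genes and without the other gene lists used below gave 16 clusters. A cluster of 56 cells with 9 of 9 epithelial markers was set aside as tumour epithelium-like, and the remaining 9682 cells form 15 classes. In 14 of these classes, 10 of 10 macrophage markers (such as Adgre1, which encodes F4/80, Csf1r and Itgam, which encodes CD11b) were seen in at least 10% of cells, and in cluster 14 there were 9 of 10.

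All 9 genes were found in every mouse, and their sum was alike. Summed over the 9 genes, macrophages held 5386, 5027 and 5176 CPM (counts per 1000000 UMIs of the cells summed) in mice 1, 2 and 3. Junb averaged 1779 ± 164 CPM, Jund 850 ± 170, Fos 781 ± 100.4 and Atf3 573 ± 55.0 (mean ± SD, n = 3 mice). Jun averaged 379 ± 29.3, Fosb 328 ± 47.8, Nr4a1 204.3 ± 66.0, Ier2 203.8 ± 29.4 and Egr1 98.8 ± 26.6 CPM. The kit counts the 3' end of each transcript, and no order between genes is read from these values.

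The genes that differed most between mice were Nr4a1 and Egr1. Nr4a1 had 202, 140 and 272 CPM in mice 1, 2 and 3, a coefficient of variation of 32.3%, above 88.4% of all genes tested. Egr1 (ENSMUSG00000038418, mm10 chr18:34859823-34864984, plus strand) had 100.2, 125 and 71.5 CPM, with a coefficient of variation of 26.9% (above 82.6% of genes). Mouse 3 was thus highest for Nr4a1 and lowest for Egr1. Jund had 941, 954 and 654 CPM and was lowest in mouse 3 as well. The median coefficient of variation of the 9 genes was 14.4%, against 13.9% for all 10376 genes tested, and that of Jun was the smallest at 7.73%. Counting error was small beside these differences, with exact Poisson 95% intervals of 193 to 210.04, 136 to 143 and 268 to 275 for Nr4a1. Such intervals cover counting error only.

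**Figure D1:**
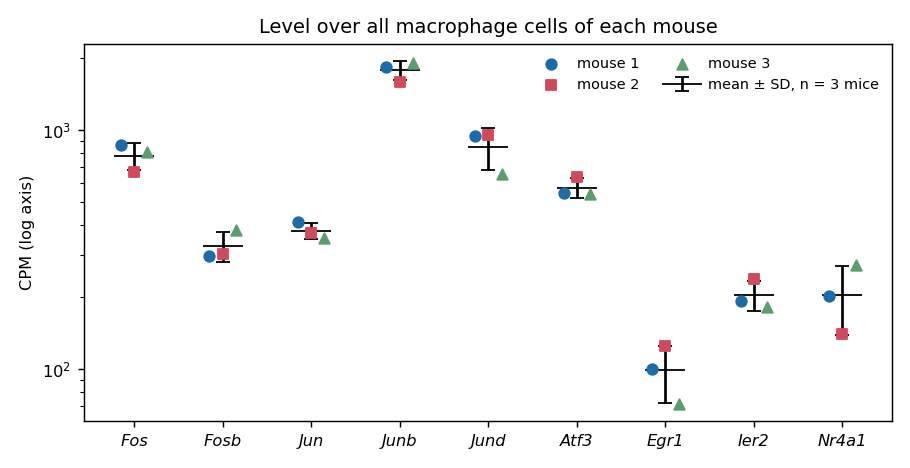
Level of each of the 9 genes over all macrophages of a mouse, in CPM on a log axis, with 1 point per mouse and the mean ± SD of 3 mice. Nr4a1 spreads from 140 in mouse 2 to 272 in mouse 3, while Jun stays between 355 and 411.

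The 56 epithelium-like cells in the sort carried the same genes, at 706 CPM for Fos, 585 for Jun, 678 for Junb, 824 for Jund and 174 for Egr1. After every cell was thinned to 2000 UMIs, Junb was seen in 81.4%, 82.9% and 88.5% of macrophages in mice 1, 2 and 3, against 53.8% of the 39 epithelium-like cells that were deep enough. Jun was seen in 33.6%, 30.2% and 30.3% of macrophages, against 53.8% of those epithelium-like cells. Without thinning, Junb was seen in 92.7%, 94.0% and 96.8% of macrophages and 71.4% of epithelium-like cells, at median depths of 10226.5 and 4275 UMIs. None of these cells belongs to a type known to lack the 9 genes, so no background share from free RNA could be read.

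For 6 of the 9 genes the levels spread more between classes than between mice within a class, and for Nr4a1, Egr1 and Ier2 they did not. For Egr1 this includes cluster 14, where mice 1, 2 and 3 held only 5, 3 and 0 UMIs of it. UMIs were summed per class and mouse, and edgeR's quasi-likelihood test set each class against the unweighted mean of the other classes, with mouse as a block and Benjamini-Hochberg adjustment over 10376 genes (threshold 0.05). Of the 135 pairs of a gene and a class, 37 were higher, 30 were lower and 68 did not pass. Over all genes and classes, 13.8% of pairs were higher and 5.51% were lower. The contrasts share their classes, so a gain in 1 class lowers the others. The median log2 fold change of all genes was taken in each class, and the median of these class medians was 0.12, with cluster 14 at -0.89. That median was -0.00 when clusters 10 and 14, whose cells held few UMIs, were left out of the mean. Of the calls over all genes, 71.5% were in the higher direction with all classes in the mean and 57.1% without those 2. Egr1 ranged 21.4-fold between the class means of clusters 12 and 5 and Jun 13.9-fold between those of clusters 12 and 0. Ier2 ranged 2.59-fold, and 1 of its 15 pairs passed.

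**Figure D2:**
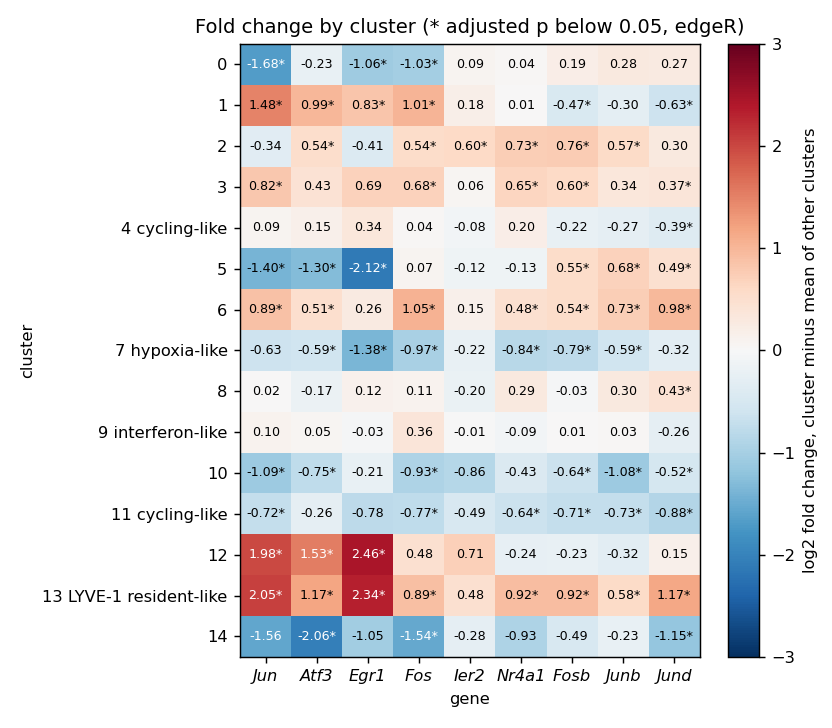
Log2 fold change of each gene (columns) in each macrophage class (rows) against the mean of the other classes, with an asterisk where the edgeR adjusted p was below 0.05. Jun, Atf3 and Egr1 are high in clusters 1, 12 and 13 and low in cluster 5, where Fosb, Junb and Jund are high.

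Cluster 12 was high for Jun, Atf3 and Egr1, and the other 6 genes did not pass there. It is a small class of 151 cells (16, 15 and 120 in mice 1, 2 and 3) led by the transcripts Ctcflos and Gm33195, with 5 of 7 MHC class II markers raised. Egr1 had 435, 358 and 398 CPM in cluster 12, against 95.2, 119 and 75.4 in the other classes. Jun had 1592, 1153 and 752 in cluster 12, against 326, 335 and 349 in the other classes. Atf3 had 1312, 1451 and 1298 in cluster 12, against 461, 576 and 493 in the other classes. In every mouse the cluster lay above the mean of the other classes for all 3 genes. Single classes went further: in mouse 3, Jun had 755 CPM in cluster 1 and 1187 in cluster 13. In mouse 2, Egr1 had 419 in cluster 13. The log2 fold changes were 2.46 ± 0.33 for Egr1 (SE, adjusted p = 9.46e-06), 1.98 ± 0.23 for Jun (adjusted p = 1.18e-06) and 1.53 ± 0.17 for Atf3 (adjusted p = 5.93e-07). These 3 of 9 calls compare with 4.51% of all genes higher in that contrast. Junb was at 2003, 1007 and 1180 CPM in cluster 12, against 1786, 1584 and 1879 in the other classes, with the mice on both sides (log2 fold change -0.32, adjusted p = 0.192). Ier2 was at 634, 285 and 187 CPM in cluster 12, against 195, 237 and 177 in the other classes (log2 fold change 0.71, adjusted p = 0.0866). Fos was at 1095, 868 and 757 CPM in cluster 12, against 723, 592 and 772 in the other classes (log2 fold change 0.48, adjusted p = 0.190). Ier2 and Fos each passed in 3 of the alternatives. The calls of Jun, Atf3 and Egr1 held in each of the 15 alternatives that gave a value.

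Other early response genes ran against Jun, Atf3 and Egr1 in cluster 12. Of 25 such genes, 1 rose and 8 fell, at a median log2 fold change of -0.56, against 0.07 for all genes and 3.08% of all genes lower. Plk3, a stress-activated kinase, was at 0.90 ± 0.20, while Fosl2, the Fra-2 partner of the Jun proteins, fell by 1.81 and Jdp2, a Jun dimerisation partner that represses AP-1 sites, fell by 1.48. Of 15 tested feedback regulators, a mixed list that includes phosphatases and RNA-decay factors, 0 were higher and 6 were lower. Among the lower were Dusp2 at -1.74, Gadd45b at -1.64 and Dusp5 at -1.22.

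Cluster 1 had the same 3 genes high, and Fos with them, while Fosb and Jund were low. This class of 1326 cells is led by Il16, Calhm2, Asb2 and Hhex and takes 19.0%, 15.4% and 12.7% of the macrophages of mice 1, 2 and 3. Jun had 819, 880 and 755 CPM in cluster 1, against 391, 354 and 348 in the other classes. Fos had 1212, 1268 and 1313 in cluster 1, against 713, 563 and 732 in the other classes. Jund had 628, 466 and 508 in cluster 1, against 925, 991 and 648 in the other classes. Cluster 1 was above the mean of the other classes for Jun and Fos and below it for Jund in every mouse. Single classes went further: Jun had 1592 and 1153 CPM in mice 1 and 2 of cluster 12, Fos had 1466 in mouse 1 of cluster 6, and Jund had 478 and 369 in mice 1 and 3 of cluster 11. The log2 fold changes were 1.48 ± 0.20 for Jun (adjusted p = 1.46e-06), 1.01 ± 0.17 for Fos (adjusted p = 2.47e-05), 0.99 ± 0.16 for Atf3 (adjusted p = 2.05e-05) and 0.83 ± 0.27 for Egr1 (adjusted p = 0.0171). Fosb was at -0.47 ± 0.14 (adjusted p = 0.00829) and Jund at -0.63 ± 0.13 (adjusted p = 1.88e-04). That is 4 genes higher and 2 lower, where 21.8% of all genes were higher and 11.4% lower. Without mouse 2 the calls of Egr1, Fosb and Jund did not pass, and without mouse 3 that of Fosb did not.

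Cluster 1 also carried heat shock transcripts. Of 16 heat shock genes, 8 rose and 2 fell there. On the log2 scale Hspa1b was at 2.02 ± 0.33 and Hspa1a at 1.91 ± 0.29, both inducible chaperones of the Hsp70 family. The summed level of the 16 genes was 9482 to 11098 CPM over the mice. It was 10002 to 10893 in cluster 6, 8250 to 11566 in cluster 9 and 9110 to 9466 in cluster 11. The part of the heat shock transcripts in the levels of Jun and Fos was not tested. Of 25 other early response genes, 2 rose and 9 fell, among them Jdp2 at -2.08, Nr4a3 at -1.90 and Maff at -1.81. Of 15 feedback regulators, 2 rose and 9 fell: Dusp6, the phosphatase that acts on ERK, was at 1.74 ± 0.12, whereas Dusp5 was at -2.50, Nfkbia, the inhibitor of NF-kB, at -1.47 and Gadd45b at -1.16. Among 23 upstream kinases and factors, 2 rose and 9 fell, with Map2k3 at -2.07, Crem at -1.43 and Mapkapk2 at -0.91.

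Clusters 5 and 0 showed the reverse side of Jun. Cluster 5 (759 cells, led by Uck2, Olr1, Thbs1 and Trem1) and cluster 0 (1425 cells, led by Cd207, Gpr84, Ccl22 and Il12b) had 6 and 7 of 10 inflammatory markers raised. Jun had 115, 98.4 and 115 CPM in cluster 5, against 449, 410.2 and 394 in the other classes. Atf3 had 180, 186 and 209 in cluster 5, against 556, 666 and 571 in the other classes. Egr1 had 15.3, 22.5 and 17.8 in cluster 5, against 130.2, 143 and 103 in the other classes. The cluster lay several-fold below the mean of the other classes in every mouse. Single classes went lower: Jun in cluster 0 did so in every mouse. In mice 2 and 3 of cluster 14, Jun had 27.2 and 32.9 CPM and Atf3 had 54.4 and 165. The log2 fold change was -1.40 ± 0.28 for Jun (adjusted p = 4.65e-04), -1.30 ± 0.20 for Atf3 (adjusted p = 2.63e-05) and -2.12 ± 0.44 for Egr1 (adjusted p = 8.79e-04). Jun and Egr1 did not pass without mouse 2.

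The Fosb, Junb and Jund levels of cluster 5 were raised. Junb had 2278, 2296 and 2340 CPM in cluster 5, against 1763, 1492 and 1796 in the other classes. Fosb had 411, 310.5 and 458 in cluster 5, against 266, 309 and 352 in the other classes, and mouse 2 showed almost no difference. Jund had 922, 1281 and 738 in cluster 5, against 901, 933 and 632 in the other classes. Log2 fold changes were 0.68 ± 0.12 for Junb (adjusted p = 6.43e-05), 0.55 ± 0.13 for Fosb (adjusted p = 0.00201) and 0.49 ± 0.11 for Jund (adjusted p = 0.00188). So 3 of the 9 genes rose and 3 fell in cluster 5, where 16% of all genes rose and 2.27% fell. Of 25 other early response genes, 11 rose and 1 fell, with Ier3 at 1.71 ± 0.17, and of 15 feedback regulators 9 rose and 1 fell, with Dusp2 at 1.12, Nfkbia at 0.99 and Gadd45b at 0.96. Of the heat shock genes 1 rose and 3 fell, Hspa1a being at -1.85 ± 0.43.

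In cluster 0, Jun had 88.0, 84.5 and 79.4 CPM, against 452, 411 and 397 in the other classes. Fos had 247, 263 and 296 in cluster 0, against 794, 635 and 805 in the other classes. Both were about as low in each mouse. Jun was at -1.68 ± 0.28 (adjusted p = 2.70e-05), Fos at -1.03 ± 0.20 (adjusted p = 2.90e-04) and Egr1 at -1.06 ± 0.35 (adjusted p = 0.0250) on the log2 scale. These 3 of 9 calls stand against 4.99% of all genes lower. The call of Egr1 was lost when any 1 of the mice was left out. Junb was at 1653, 1666 and 1573 CPM in cluster 0, against 1815, 1537 and 1851 in the other classes, which did not pass (log2 fold change 0.28, adjusted p = 0.0907). Of 15 feedback regulators, 8 rose, against 19.6% of all genes, and 3 fell, with Dusp2 at 1.62, Gadd45b at 1.36 and Dusp5 at 1.20 but Dusp6 at -1.74.

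**Figure D3:**
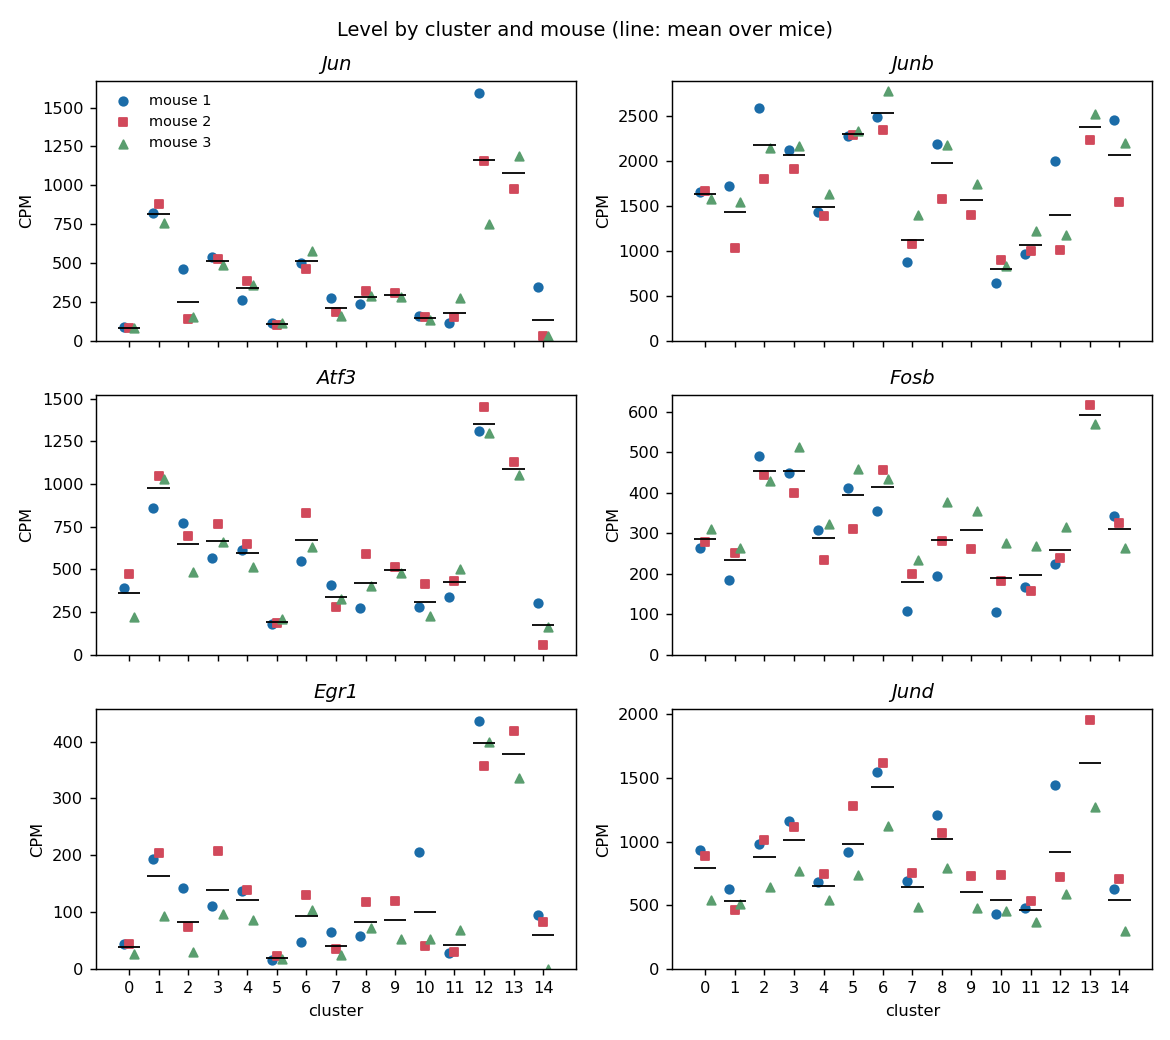
Level of 6 of the genes in each macrophage cluster, in CPM, with 1 point per mouse and a line at the mean over mice. Jun is at 115 or less in clusters 0 and 5 in every mouse and at 752 or more in clusters 1, 12 and 13, while Junb in cluster 5 is at 2278 or more.

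The balance between Jun and Junb was unlike at the ends of the order of classes. For each Junb UMI there were 0.053, 0.051 and 0.050 Jun UMIs in cluster 0 in mice 1, 2 and 3, and 0.051, 0.043 and 0.049 in cluster 5. In cluster 1 there were 0.474, 0.856 and 0.487, and in cluster 12 there were 0.795, 1.14 and 0.637. No mouse of clusters 0 or 5 overlapped any mouse of clusters 1 or 12, which were picked for their low and high Jun. The ratio also differed between mice, from 0.114 to 0.316 in cluster 7, from 0.071 to 0.178 in cluster 2 and from 0.015 to 0.140 in cluster 14, while in cluster 6 it stayed between 0.195 and 0.207. The thinned cells gave the same picture: a Jun UMI was seen in 56.1%, 55.7% and 54.0% of the cells of cluster 1 and in 8.57%, 13.9% and 19.0% of those of cluster 5, and a Junb UMI in 62.6%, 59.2% and 74.1% of the cells of cluster 1 and in 94.3%, 96.5% and 95.9% of those of cluster 5. The ratio of Atf3 to Fosb UMIs ran the same way, at 4.64, 4.15 and 3.90 in cluster 1 and 0.439, 0.600 and 0.458 in cluster 5.

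Nearly the whole set rose in cluster 13, the LYVE-1 resident-like macrophages. Cluster 13 has 98 cells and all 13 of 13 LYVE-1 markers, among them Lyve1, Cd209f and Fcna, and LYVE-1 macrophages lie around vessels and in connective tissue in many mouse organs. Mouse 1 gave 3 such cells and was left out, so the values rest on 20 and 75 cells of mice 2 and 3. Jun had 975 and 1187 CPM in cluster 13, against 348 and 318 in the other classes of mice 2 and 3. Egr1 had 419 and 336 in cluster 13, against 114 and 79.8 in the other classes. Jund had 1959 and 1274 in cluster 13, against 885 and 594 in the other classes. Both mice were well above the mean of the other classes for all 3. Cluster 12 was higher still for Jun in mouse 2 (1153) and for Egr1 in mouse 3 (398). Log2 fold changes were 2.05 ± 0.26 for Jun (adjusted p = 7.64e-07), 2.34 ± 0.38 for Egr1 (adjusted p = 3.48e-05) and 1.17 ± 0.14 for Jund (adjusted p = 3.95e-08). Atf3 (1.17), Nr4a1 (0.92), Fosb (0.92), Fos (0.89) and Junb (0.58) also rose, and Ier2 had 272 and 271 CPM, against 238 and 171 (adjusted p = 0.276). These 8 of 9 calls compare with 12.2% of all genes higher.

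Other early genes rose with them in cluster 13. Of 25, 14 rose and 1 fell (Sgk1, at -1.73), at a median log2 fold change of 0.94 against 0.11 for all genes. The Krüppel-like factors Klf4 and Klf2, which hold macrophages in a quiescent state, were at 2.82 ± 0.27 and 2.13 ± 0.28. Of 15 feedback regulators 9 rose, with Zfp36l2 at 1.53 and Dusp1 at 1.29, and 10 of 16 heat shock genes rose, with Hspa1b at 2.83 ± 0.44. The summed heat shock level was 13346 to 13797 CPM in cluster 13, the highest of the 15 classes, and its part in the result was not tested.

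Cluster 6 raised 7 of the 9 genes, against 20.9% of all genes. It has 713 cells led by Chil3, Ccl7, Pf4 and Cbr2, and 10 of 13 LYVE-1 and 5 of 9 monocyte markers were raised, with 1 of each list among its leading genes, so it was left without a name. Fos had 1466, 1005 and 1176 CPM in cluster 6, against 692, 582 and 742 in the other classes. Jund had 1545, 1616 and 1119 in cluster 6, against 849, 909 and 605 in the other classes. Junb had 2492, 2348 and 2785 in cluster 6, against 1745, 1488 and 1764 in the other classes. Cluster 6 was above the mean of the other classes in all 3 mice for each, though single classes were higher in some mice. Fos was at 1.05 ± 0.17 (adjusted p = 1.29e-05), Jund at 0.98 ± 0.11 (adjusted p = 6.24e-09), Junb at 0.73 ± 0.12 (adjusted p = 9.35e-06) and Jun at 0.89 ± 0.22 (adjusted p = 0.00222). Fosb, Atf3 and Nr4a1 were at 0.54, 0.51 and 0.48. The Jun call was lost without mouse 3, that of Nr4a1 without mouse 2 and that of Atf3 without either. Of 25 other early response genes 19 rose and 1 fell, with Ier3 at 1.99 and Klf4 at 1.97, 9 of 15 feedback regulators rose, with Zfp36 at 1.08 and Dusp1 at 1.06, and 12 of 16 heat shock genes rose.

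Clusters 2 and 3 raised Fosb and Nr4a1. In cluster 2 (1234 cells, led by Rims2, Gdf15, Chst1 and Lag3), Fosb had 491, 444 and 428 CPM, against 259, 299 and 354 in the other classes. Nr4a1 had 325, 168 and 319 in cluster 2, against 178, 125 and 246 in the other classes. The log2 fold changes were 0.76 ± 0.13 for Fosb (adjusted p = 6.36e-05) and 0.73 ± 0.13 for Nr4a1 (adjusted p = 1.77e-04), and Ier2, Junb, Fos and Atf3 passed at 0.60, 0.57, 0.54 and 0.54. These are 6 of 9 genes, against 10.4% of all genes. Fos had 1377, 516 and 685 CPM in cluster 2, against 700, 617 and 777 in the other classes, so mouse 1, with 39 cells of the cluster, was higher and mice 2 and 3 were lower. Fos and Atf3 lost their calls when any 1 of the mice was left out, Ier2 without mouse 2 or mouse 3, and Junb without mouse 3. In mouse 1, Jun was at 462 in cluster 2 and in mice 2 and 3 at 138 and 152, against 421, 407 and 391 in the other classes, and it did not pass (adjusted p = 0.494).

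In cluster 3 (1018 cells, led by Cd93, Apold1 and Cxcr4, with a median of 23159.5 UMIs per cell), Nr4a1 had 277, 190 and 372 CPM, against 182, 123 and 242 in the other classes. Jun had 536, 524 and 485 in cluster 3, against 414, 380 and 368 in the other classes. Both were higher in every mouse. Nr4a1 was at 0.65 ± 0.12 (adjusted p = 4.88e-04), Jun at 0.82 ± 0.21 (adjusted p = 0.0141), Fos at 0.68, Fosb at 0.60 and Jund at 0.37, which makes 5 of 9 genes against 9.01% of all genes. Jun and Fos lost their calls without mouse 2 or mouse 3, and Jund without mouse 3. The cells of cluster 3 held about the same mitochondrial share as the rest (median 4.72%).

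The set was low in the hypoxia-like and in the S-phase cells. Cluster 7 (639 cells, led by Bnip3, P4ha2, Mmp12 and Arg1, with 6 of 10 hypoxia markers, 3 of them among its leading genes, and 6 of 10 lipid-associated markers, 1 of them leading) had Nr4a1 at 70.9, 78.0 and 156 CPM, against 199, 131 and 258 in the other classes. Fosb had 109, 199 and 233 in cluster 7, against 291, 317 and 368 in the other classes. Each mouse was lower. Nr4a1 was at -0.84 ± 0.15 (adjusted p = 9.59e-05), Fosb at -0.79 ± 0.15 (adjusted p = 1.27e-04), Fos at -0.97, Junb at -0.59, Atf3 at -0.59 and Egr1 at -1.38 on the log2 scale. These are 6 of 9 genes, against 6.53% of all genes. The calls of Fos and Egr1 were lost without mouse 2, that of Egr1 also without mouse 3 and that of Atf3 when any 1 mouse was left out. Of 25 other early response genes, 0 rose and 10 fell, and of 15 feedback regulators 1 rose and 9 fell.

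Cluster 11 (289 cells led by the replication genes Ung, Mcm6 and Uhrf1) had Jund at 478, 532 and 369 CPM, against 938, 987 and 658 in the other classes. Junb had 965, 998 and 1222 in cluster 11, against 1872, 1585 and 1876 in the other classes. Log2 fold changes were -0.88 ± 0.13 for Jund (adjusted p = 3.05e-06) and -0.73 ± 0.14 for Junb (adjusted p = 1.03e-04), and Fos, Jun, Fosb and Nr4a1 fell too, at -0.77, -0.72, -0.71 and -0.64. The 6 of 9 genes compare with 10.5% of all genes lower. Without mouse 2, Fos, Jun, Fosb and Nr4a1 lost their calls, Jun did so when any 1 mouse was left out, and Nr4a1 also without mouse 3. Of 25 other early genes 0 rose and 11 fell, and of 15 feedback regulators 0 rose and 9 fell. Cluster 4 (760 cells), the cycling-like class led by mitosis genes such as Ube2c and Ccnb1, differed from cluster 11 in its counts: Jund alone was lower there, at 681, 745 and 538 CPM, against 921, 972 and 646 in the other classes (log2 fold change -0.39 ± 0.12, adjusted p = 0.0159). That is 1 of 9 genes, against 6.33% of all genes, and it was lost without mouse 2 or mouse 3. The 2 classes were not tested against each other.

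In clusters 10 and 14 the cells held few UMIs, with medians of 1992.5 and 1568.5. In cluster 10 (362 cells) 6 of 9 genes were lower, against 4.6% of all genes, with Junb at 644, 904 and 833 CPM, against 1899, 1592 and 1904 in the other classes. Junb was at -1.08 ± 0.15 on the log2 scale (adjusted p = 3.76e-06), and Jun, Fos, Atf3, Fosb and Jund were at -1.09, -0.93, -0.75, -0.64 and -0.52. All of these but Junb lost their calls when 1 or more of the mice were left out in turn. In cluster 14 (66 cells, median 7.93% mitochondrial UMIs) Atf3, Fos and Jund were at -2.06, -1.54 and -1.15, which is 3 of 9 genes against 13.5% of all genes. Fos did not pass there without mouse 2. Junb was at 2455, 1550 and 2207 in cluster 14, against 1748, 1545 and 1806 in the other classes, on the level of CPM, and its fitted log2 fold change, which is scaled by TMM, was -0.23 (adjusted p = 0.398). The median of all genes in cluster 14 was -0.89.

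In clusters 9 and 8 few of the 9 genes passed, which does not show that the others were alike. In the interferon-like cluster 9 (366 cells, with 10 of 10 interferon markers), 0 of 9 genes passed in edgeR, 0 had an unadjusted p under 0.05 and 0 passed in DESeq2. Fos was furthest from the other classes, at 678 and 805 CPM in mice 2 and 3, against 605 and 768 (log2 fold change 0.36 ± 0.22, adjusted p = 0.395). Mouse 1 gave 9 cells of cluster 9 and was left out, and the summed T cell markers of the class stood at 22.3 CPM in 1 of the other mice and at 253 in the other. In cluster 8 (476 cells, led by Lyz1, Ear2 and Aldh1a2, with a median of 27903 UMIs), Jund was higher at 1212, 1070 and 791 CPM, against 877, 948 and 628 in the other classes (0.43 ± 0.12, adjusted p = 0.00618). This is 1 of 9 genes, against 17.6% of all genes. The Jund call was lost in 6 of 18 alternatives, and Junb, which did not pass here, passed in 6 of them.

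At a finer clustering cluster 1 came apart, and with it the high levels of its early genes. At Leiden resolution 1.5, chosen as an alternative, its cells fell mainly into 3 of 20 finer macrophage clusters, shown here because their members differed. The finer cluster of 710 cells holds 697 cells of cluster 1 (52.6% of it). The finer cluster of 798 cells holds 454 of them (34.2%) with 234 cells of cluster 2. The finer cluster of 231 cells holds 133 of them (10.0%) with 81 cells of cluster 6.

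In the finer cluster of 798 cells, 8 of the 9 genes were higher than in the mean of the other finer clusters. Fos had 2183, 1786 and 1697 CPM in mice 1, 2 and 3, Atf3 had 1530, 1909 and 1301, and Ier2 had 514, 467 and 287. Log2 fold changes were 1.69 ± 0.14 for Fos (adjusted p = 2.66e-11), 1.84 ± 0.16 for Atf3 (adjusted p = 1.50e-10), 1.78 ± 0.16 for Jun (adjusted p = 1.20e-10), 1.78 ± 0.26 for Egr1 (adjusted p = 3.66e-06) and 1.21 ± 0.17 for Ier2 (adjusted p = 1.21e-06). Nr4a1 (1.20), Junb (0.70) and Fosb (0.68) rose too, and Jund was at 0.03 (adjusted p = 0.955). Of all genes, 9.74% were higher in this contrast. Egr1 differed between mice, at 392, 306 and 103 CPM. Of 16 heat shock genes 14 rose and 0 fell, of 25 other early response genes 11 rose and 1 fell, and of 15 feedback regulators 7 rose and 1 fell. The part of the heat shock genes was not tested.

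In the finer cluster of 710 cells, 5 of the 9 genes were lower and 1 was higher, where 14.5% of all genes were lower and 19.8% higher. Junb had 693, 543 and 926 CPM in mice 1, 2 and 3, Fosb had 103.5, 135 and 118, and Nr4a1 had 47.2, 43.8 and 109. These are the lowest values of the 3 finer clusters in every mouse. Nr4a1 was at -1.62 ± 0.21 (adjusted p = 6.13e-08), Fosb at -1.57 ± 0.17 (adjusted p = 6.39e-10), Junb at -1.41 ± 0.15 (adjusted p = 1.90e-10), Jund at -1.37 ± 0.15 (adjusted p = 8.51e-10) and Ier2 at -0.83 ± 0.20 (adjusted p = 0.00144) on the log2 scale. Jun was still higher, at 406, 607 and 487 CPM and a log2 fold change of 0.68 ± 0.18 (adjusted p = 0.00252), and Fos (-0.23), Atf3 (-0.10) and Egr1 (-0.20) did not pass. Of 25 other early response genes 0 rose and 18 fell, of 15 feedback regulators 2 rose and 11 fell, and of 16 heat shock genes 2 rose and 5 fell. The median cell held 9691 UMIs and 4.94% mitochondrial UMIs here, and 8940.5 UMIs and 4.47% in the finer cluster of 798 cells. In the finer cluster of 231 cells Jun (1.90), Fos (1.27) and Atf3 (0.65) rose, against 12.8% of all genes, and 10 of 16 heat shock genes rose and 1 fell. Jun was the gene that passed as higher in all 3 of these finer clusters, and no mouse was left out in turn in this clustering.

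**Figure D4:**
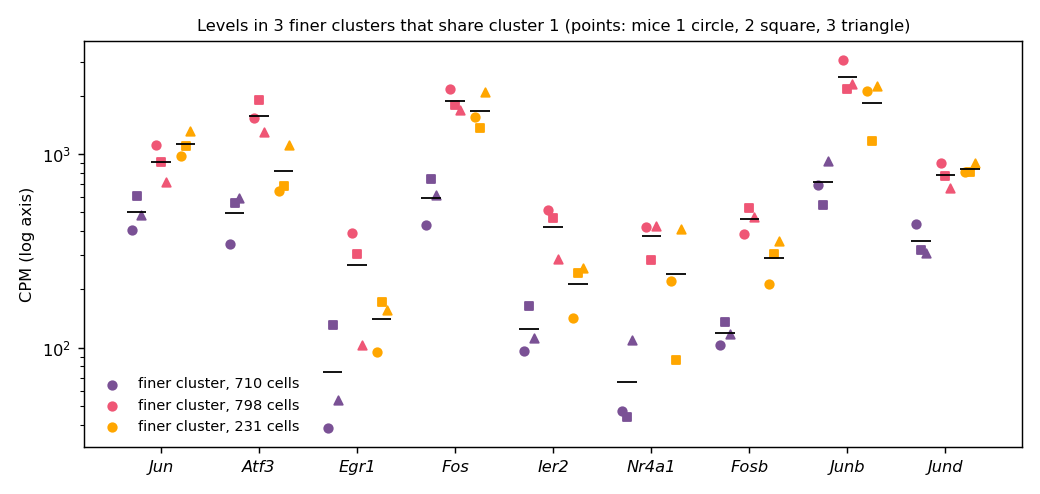
Level of each gene in the 3 finer clusters that hold most of cluster 1, in CPM on a log axis, with 1 point per mouse and a line at the mean over mice. The cluster of 710 cells is lowest for Fosb, Junb, Jund and Nr4a1, and the cluster of 798 cells is highest for Atf3, Ier2 and Fosb on average.

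Within single cells, UMIs of several of the 9 genes were often seen together. Cells were thinned to 2000 UMIs, which kept 613, 1981 and 6686 macrophages of mice 1, 2 and 3 and left out 44, 101 and 257 shallower ones. The median cell held UMIs of 4 of the 9 genes, and 3.43%, 2.78% and 1.91% of cells held none. At least 7 of the 9 were seen in 7.83%, 9.54% and 7.99% of cells, and all 9 in 7, 18 and 31 cells. The 10% of cells with the most UMIs of these genes held 32.8%, 28.9% and 27.0% of them.

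Over the 36 pairs of genes, the median log2 odds ratio of being seen in the same cell was 0.84, and 34 pairs were above 0 in all 3 mice. Cells of a mouse share a library and their depth was equalised, and these values are a description without a test. The strongest pairs were Junb with Nr4a1 (2.67, 1.70 and 1.47 in mice 1, 2 and 3), Fosb with Junb (1.99, 1.77 and 1.51) and Jun with Egr1 (1.86, 1.55 and 1.66). The weakest was Jun with Junb, at -0.05, -0.12 and -0.11, which became 0.33 ± 0.11 (SD, n = 3 mice) within classes. The correlation of log-normalised counts over cells was weak, with a median r of 0.17 and a range of 0.06 to 0.35.

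The sums per class and mouse told the 9 genes apart more clearly. Over 43 such sums, centred within mouse, r was 0.89 for Jun with Atf3, 0.81 for Jun with Egr1 and 0.77 for Jun with Fos. It was 0.81 for Fosb with Junb, 0.72 for Junb with Jund and 0.71 for Junb with Nr4a1. Between the 2 groups the lowest values were 0.14 for Jun with Junb, 0.07 for Atf3 with Junb and -0.04 for Egr1 with Junb. Other such pairs without Fos reached up to 0.40 (Jun with Jund). Fos was not set apart: r was 0.58 with Nr4a1, 0.52 with Fosb, 0.47 with Junb and 0.47 with Jund, against 0.50 with Egr1. The sums of a mouse share its library, and each class enters up to 3 times.

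**Figure D5:**
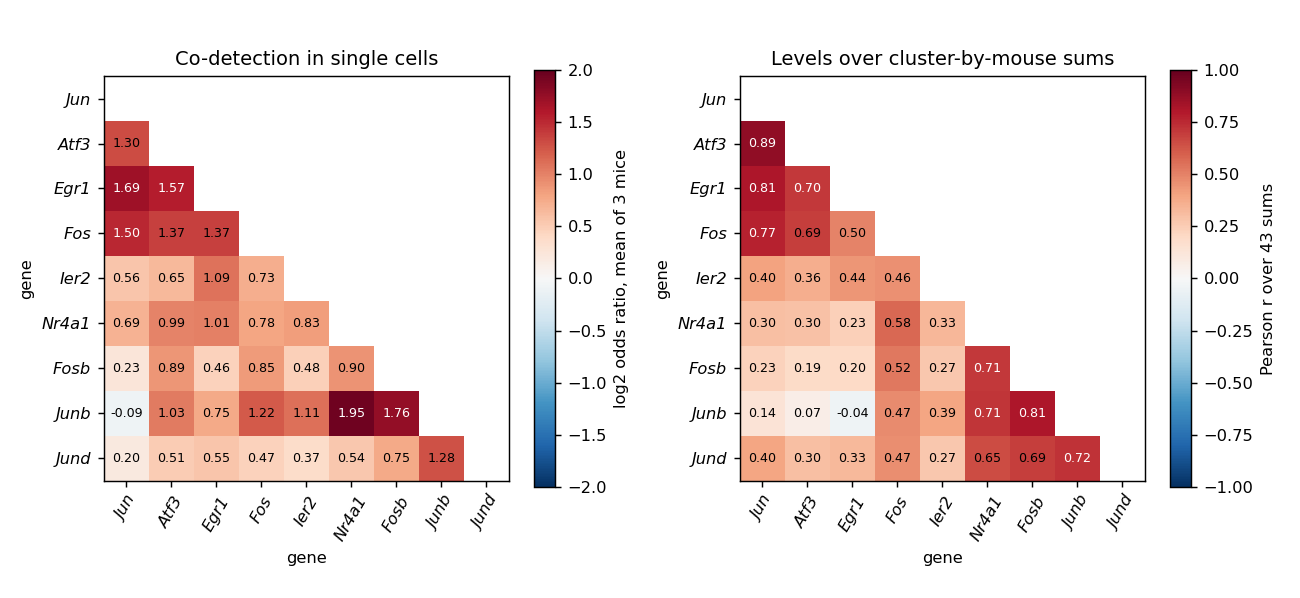
Left, mean log2 odds ratio over 3 mice of each pair of genes being seen in the same cell after thinning to 2000 UMIs; right, Pearson r of the same pairs over 43 class-by-mouse sums, centred within mouse. On the right, Jun, Atf3 and Egr1 form 1 block and Nr4a1, Fosb, Junb and Jund another, while Fos is correlated with members of both. Jun with Junb is near 0 on the left.

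Outside the set, the gene whose level over the 43 sums was most like the mean of the 9 was Zfand5 (r = 0.87), a zinc finger protein tied to ubiquitin-dependent protein turnover. Other genes close to that mean were the receptor gene Il6ra (0.78), Stk17b (0.77), Rasgef1b (0.76), Pnrc1 (0.74), the RNA-decay factor Zfp36l1 (0.74), Selenop (0.72) and Fcgrt (0.72), among 2638 genes at 50 or more CPM. The 2 groups had different neighbours, picked after their values were seen. Nearest to Junb were Tob2 (0.87), Dusp1 (0.87), Socs3 (0.87), Tiparp (0.86) and Zfp36 (0.83). Close to Jun, beside Atf3 and Egr1, were Fos (0.77) and Zfand5 (0.76). Nearest to Nr4a1 was the early response gene Rhob (0.80), and nearest to Ier2 was Btg2 (0.71), a growth-arrest gene.

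Mice kept an order of their own inside the classes. Over the 13 classes measured in all 3 mice, Jund was lowest in mouse 3 in 11, Nr4a1 was highest in mouse 3 in 10 and lowest in mouse 2 in 10, and Fosb was highest in mouse 3 in 10. For Jun the SD of log2 levels was 1.23 between classes and 0.68 between mice within a class. For Junb it was 0.51 between classes and 0.27 between mice. For Nr4a1, Egr1 and Ier2 the spread between mice within a class was as large as that between classes or larger, at 0.65 against 0.51, 1.23 against 1.23 and 0.48 against 0.38. The value of Egr1 leans on cluster 14, which had 95.2, 81.6 and 0 CPM from 5, 3 and 0 UMIs. A level of 0 weighs heavily on a log scale, and the spread was not computed without that class. Library, depth and tumour cannot be told apart here, since each mouse is 1 library.

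The summed level of the 9 genes was also read by cell quality. In cells with up to 3% mitochondrial UMIs it was 6900, 5198 and 5861 CPM in mice 1, 2 and 3, and in cells with 8% to 15% it was 4487, 4604 and 5592. In cells with under 5000 UMIs it was 6601, 5251 and 5857, and in cells with over 20000 UMIs it was 5131, 4948 and 5565. On both measures the lowest range was above the highest in each mouse, with the largest gap in mouse 1. These CPM count mitochondrial UMIs in the total, so a larger mitochondrial share by itself lowers the level. The ranges were not computed on non-mitochondrial UMIs, and the order by mitochondrial share may differ there. The ranges between did not follow an order in mice 2 and 3. In mouse 2 the level was 5251 at 3% to 5% mitochondrial UMIs and 5527 at 5000 to 10000 UMIs, and in mouse 3 it was 4687 at 5% to 8% mitochondrial UMIs and 4503 at 10000 to 20000 UMIs. The part of these measures in the class differences was not tested, beyond the alternative limits given in the closing section.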

How the data were processed

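Per the labels and the submitters' processing notes, the authors sorted macrophages, made 10x 3' v3 libraries and ran Cell Ranger 3.0.2 on mm10; the annotation release is not given in the sources used here. The deposited files hold raw UMI counts per gene and cell barcode, 1 matrix per mouse, without normalization. Replicates are separate mice.

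From these counts, cells of 500 or more genes with 15% or less of UMIs from mitochondrial genes were kept and clustered with scanpy 1.11.5 (2000 variable genes, 30 principal components, Leiden resolution 1). The 9 genes, the other gene lists, ribosomal and mitochondrial genes were held out. Scrublet marked 11 cells (0.113%) as doublets, too few for it to have worked, and these 11 were removed before clustering. A class was named when at least 5 markers of its list were seen in at least 10% of its cells and were at least 0.5 log2 above the other clusters, with at least 1 among its 10 leading genes and no other list having as many there. Other classes keep numbers and leading genes.

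UMIs were summed per class and mouse (at least 10 cells in at least 2 mice, 43 sums) and tested with edgeR 4.0.16 (R 4.3.3; filterByExpr, TMM, robust quasi-likelihood F test, two-sided). Mouse was a block, because the classes of a mouse come from the same animal. Each class was set against the unweighted mean of the others, and p-values were adjusted by Benjamini-Hochberg over 10376 genes. Levels as counts per 1000000 UMIs (CPM) are descriptive and carry no TMM factor. Shares and co-detection used cells thinned to 2000 UMIs. Of the 31053 features, 35 share a symbol and were told apart by gene ID. The depth of each library sets the precision: rare classes rest on few cells, and intervals cover counting error only.

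The 9 genes and the gene lists were chosen with earlier results of these data known. The genes named from the lists are, per class, up to 3 per direction with the largest log2 change among those that passed and had the same sign in every mouse; neighbours are the 10 genes of highest correlation with the mean of the 9, some of which are not reported here. Gene positions come from GENCODE for mm10 and promoters from RefSeq on GRCm38.p6. The alternatives were DESeq2 1.42.0, its size factors, other filters, clusterings, contrasts and thinning, and leaving out each mouse. The fit was tested on simulated data.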

Additional observations from a re-analysis of the deposited data

Results flagged for a closer look

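The barcodes left out for more than 15% mitochondrial UMIs, which no comparison uses, also carried the 9 genes. Their summed level was 4528 counts per 1000000 non-mitochondrial UMIs in mouse 1 (387 barcodes), 5080 in mouse 2 (298 barcodes) and 5236 in mouse 3 (307 barcodes). In kept macrophages, on the same scale, it was 5666, 5278 and 5430. The left-out barcodes were lower in each mouse, at median depths of 3056, 2076.5 and 1508 UMIs.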

How the results depend on the processing

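The 67 calls (37 higher, 30 lower, of 135) moved with several choices. There were 23 higher without a replicate block, 21 higher (of 117) with cells up to 25% mitochondrial UMIs, 23 higher and 19 lower with equal cells per class, 15 higher and 19 lower (of 90) with clusters and tests on separate UMIs, and 9 higher and 9 lower (of 72) at Leiden resolution 0.5, where fewer classes could be matched. Leaving out 1 mouse gave 20 to 43 higher and 12 to 31 lower, with 23 and 12 without mouse 2 and 20 and 19 without mouse 3 (each of 117, clusters 9 and 13 having 1 mouse left). Of the 67 calls, 45 were kept without the replicate block, 61 in DESeq2's Wald test, 59 with the reference lacking clusters 10 and 14, and 56 with DESeq2 size factors. The signs of these calls held in those 4 settings. With equal cells per class 37 of 67 were kept, and 1 changed sign. Of the calls in classes that could be matched, 28 of 43 were kept on separate UMIs (1 changed sign), 13 of 30 at resolution 0.5 (7 changed), 46 of 58 with 4000 variable genes (3 changed) and 56 of 67 at resolution 1.5 (4 changed). Without mouse 1, 59 of 67 were kept, without mouse 2, 33 of 59, and without mouse 3, 39 of 59, with no change of sign.

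Some signs turned. Nr4a1 in cluster 1 was at -1.18 with 25% mitochondrial UMIs, -1.48 on separate UMIs, -1.38 with 4000 variable genes and -1.62 at resolution 1.5, Fosb in cluster 1 at 0.071 with equal cells, and Atf3 in cluster 1 at -0.11 on separate UMIs. At resolution 1.5, where cluster 1 was matched to its finer cluster of 710 cells, Atf3 was at -0.10, Ier2 at -0.83, Fos at -0.23 and Egr1 at -0.20, and Fos in cluster 2 was at -0.24. With 4000 variable genes, Atf3 and Fos in cluster 2 were at -0.31 and -0.50, and Atf3 in cluster 6 at -0.066. At resolution 0.5, Atf3 and Fos in cluster 2 were at -0.20 and -0.12. There, in cluster 10, Atf3 was at 0.32, Jun at 0.95, Fosb at 0.27, Jund at 0.36, Fos at 0.059 and Egr1 at 1.29. The cause of these turns was not tested. In every alternative that gave a value, Jun in cluster 1, Atf3 in cluster 5 and Fos and Jund in cluster 6 kept their calls. So did Fosb in cluster 7, Junb and Jund in cluster 11 and the 3 calls of cluster 12. The same held for Jun, Atf3, Egr1 and Jund in cluster 13 and for Atf3 and Jund in cluster 14. Leaving out mouse 2 or mouse 3 gave no value for cluster 13, which then had 1 mouse left. The median log2 odds ratio of co-detection was 1.05 at 4000 UMIs, against 0.84 at 2000 UMIs, and the levels per mouse moved by less than their spread. Small classes limit depth: 3 cells of cluster 13 in mouse 1 could not be used.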
